A study of Mus musculus with 3 samples.

Results

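The cells described here are capillary endothelial cells of the mouse heart, 606 of the 5833 cells in the deposited tables and 606 of the 1734 cells with an endothelial profile. They were chosen by their measured values. A cell was endothelial when its mean deposited value over Pecam1, Cdh5, Egfl7, Emcn and Tie1 was at least 0.5 and above its means over fibroblast and macrophage genes. Each endothelial cell was then scored for 4 types, with every gene expressed relative to its mean and spread over all endothelial cells, and it was called capillary when the score over Car4, Timp4, C1qtnf9 and Ccdc85a was above 0 and the highest of the 4. The other scores were arterial (Hey1, Sema3g, Gja4, Stmn2), Lrg1 Col13a1 (Lrg1, Col13a1, Cyp26b1, Samd5) and endocardial (Npr3, Nrg1, Smoc1, H19). Because the values of these same cells chose them, every comparison with the other endothelial types is a description with no test.

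The cells come from the interstitium of adult hearts, which were minced and digested with collagenase II. A slow centrifugation then took out cardiomyocytes and debris, and antibody staining for Lin28 and cKit on the surface guided the flow sort. Lin28 is an RNA-binding protein that blocks let-7 microRNA maturation, and cKit is a receptor tyrosine kinase that binds stem cell factor. The 3 sort groups have 1 library each. The first lacked both proteins (Lin28-negative cKit-negative, called Lin28-negative below), the second carried Lin28 alone (Lin28-positive cKit-negative) and the last carried both (Lin28-positive cKit-positive); values are given in that order unless a group is named. Each was profiled by droplet sequencing of transcript 3' ends with unique molecular identifiers (UMIs). The groups differ by the sort alone as far as the labels say; the sources used here give no strain, exact age, sex or number of hearts. Cells of 1 library are not replicates, so no p-value is given; intervals are exact 95% intervals and cover counting error only.

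Capillary endothelium lines the smallest vessels and is the site where oxygen, water and nutrients pass from blood to tissue. In the heart, which burns mostly fatty acids, it anchors lipoprotein lipase on its inner surface, takes up the released fatty acids through CD36 and hands them on with fatty acid-binding proteins. It rests on a basement membrane of type IV collagen and laminin, and its neighbours are cardiomyocytes and pericytes.

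For the 4 genes that define the type, the 300 bases around each RefSeq start are printed, from 250 before to 50 after. They are given because the shared high level of these genes is what the cells were chosen by. Car4 (11:84957786-84966044, plus strand) encodes carbonic anhydrase IV, anchored on the capillary surface. Timp4 (6:115241892-115252205, minus strand) encodes an inhibitor of matrix metalloproteinases. C1qtnf9 (14:60768134-60780869, plus strand) encodes a secreted adiponectin-like protein, and Ccdc85a (11:28385685-28584324, minus strand) a coiled-coil protein; gene positions are those of GENCODE on mm10. The sequences are RefSeq's on GRCm38.p6, at chr11:84957504-84957803, chr6:115252156-115252455, chr14:60767884-60768183 and chr11:28584275-28584574, each written 5′ to 3′ on the strand of its gene. Capitals mark matches, on either strand, to 6 motifs. A core sequence bound by many ETS factors, which are regulators of endothelial genes, was searched as AGGAAG. A further ETS core was searched as CCGGAA. The motif taken for GATA factors, zinc finger proteins of blood and vessel cells, was AGATAA. For SOX factors, which act in endothelial identity, the search used ACAAAG. The other SOX motif in the search was ACAATG. The TATA box, the core promoter element near the start of some genes, was searched as TATAAA.
Car4: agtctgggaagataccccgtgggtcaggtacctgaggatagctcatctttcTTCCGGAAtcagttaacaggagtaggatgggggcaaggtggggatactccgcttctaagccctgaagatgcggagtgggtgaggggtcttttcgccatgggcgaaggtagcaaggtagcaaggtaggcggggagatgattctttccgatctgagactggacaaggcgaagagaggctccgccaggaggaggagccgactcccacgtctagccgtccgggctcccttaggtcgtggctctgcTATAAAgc
Timp4: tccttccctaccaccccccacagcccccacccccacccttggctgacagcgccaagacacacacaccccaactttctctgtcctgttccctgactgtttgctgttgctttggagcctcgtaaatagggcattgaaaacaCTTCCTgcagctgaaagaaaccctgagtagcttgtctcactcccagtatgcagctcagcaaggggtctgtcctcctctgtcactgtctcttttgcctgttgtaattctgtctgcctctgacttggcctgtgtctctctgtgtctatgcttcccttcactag
C1qtnf9: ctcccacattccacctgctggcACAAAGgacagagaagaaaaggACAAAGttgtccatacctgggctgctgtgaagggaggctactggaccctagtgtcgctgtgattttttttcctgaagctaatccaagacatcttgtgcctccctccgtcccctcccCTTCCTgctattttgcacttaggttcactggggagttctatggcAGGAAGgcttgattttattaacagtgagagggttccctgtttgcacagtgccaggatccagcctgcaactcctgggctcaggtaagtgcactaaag
Ccdc85a: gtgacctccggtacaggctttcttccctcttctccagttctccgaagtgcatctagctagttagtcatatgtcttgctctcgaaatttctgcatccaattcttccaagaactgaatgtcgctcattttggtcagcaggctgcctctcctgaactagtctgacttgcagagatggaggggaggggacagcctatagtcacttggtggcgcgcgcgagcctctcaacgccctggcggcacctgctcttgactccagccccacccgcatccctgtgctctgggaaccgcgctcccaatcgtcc
The Car4 window held CCGGAA on both strands, as overlapping matches. These start 199 and 197 bases before the RefSeq start used for the window, and TATAAA lies at base 42 after it. For Car4 that start lies upstream of the GENCODE start given above. Timp4 held AGGAAG on the opposite strand, and C1qtnf9 held AGGAAG on each strand and ACAAAG at 2 places, while Ccdc85a held none of the 6 motifs. Among 32851 promoters of the same length, AGGAAG was found in 35.4%, CCGGAA in 14.9%, ACAAAG in 18.7%, TATAAA in 13.6%, ACAATG in 12.6% and AGATAA in 11.2%. A match is a description of the letters in the window and not a binding site.

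The values that chose the cells were as follows. Levels are UMIs summed over the cells of a type in a library, scaled to counts per 1e6 UMIs of that sum (CPM). Car4 stood at 320, 298 and 234 CPM in the capillary cells, against 31.2, 57.4 and 49.2 CPM in the arterial, Lrg1 Col13a1 and endocardial cells pooled, called the other endothelial types below. Timp4 stood at 290, 252 and 274 CPM against 47.0, 52.2 and 67.8 CPM. C1qtnf9 was at 444, 394 and 459 CPM against 151, 238 and 162 CPM, the narrowest gap of the 4, and Ccdc85a was at 226, 191 and 209 CPM against 52.2, 70.0 and 63.3 CPM. Few single cells held all of them: 110 capillary cells held UMIs of all 4, 219 of 3, 242 of 2 and 35 of only 1. C1qtnf9 was detected in 82.5% of the cells, Car4 in 66.0%, Ccdc85a in 65.5% and Timp4 in 52.6%. At least 2 of the arterial genes were detected in 38 of the 606 cells, at least 2 of the Lrg1 Col13a1 genes in 1 and at least 2 of the endocardial genes in 0. The label was also compared with 18 capillary genes that the rule did not use. All 18 were measured, and 5 of them were at least 1.5-fold above the other types in every library and 0 at least 1.5-fold below, as described further on.

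The edge of the class was not sharp. The median cell led its next best type by 0.55 score units, and that type was endocardial for 357 cells, arterial for 167 and Lrg1 Col13a1 for 82. The endocardial count mostly follows the score that a cell gets when it holds none of a type's genes. Any endocardial gene of the rule was detected in only 17 of the 606 cells. The median scores were the same in every library, at -0.199 for endocardial, -0.256 for Lrg1 Col13a1 and -0.458 for arterial. The next best type is thus no measure of likeness. The lead was under 0.1 in 31 cells and under 0.25 in 101, while 35 cells fell outside because another type led by under 0.1. Just inside the cut the mean deposited value, a natural log, of Car4 was 0.823 and that of Stmn2, an arterial gene, was 0.864. Just outside they were 0.440 and 0.398, and over all capillary cells 1.06 and 0.328.

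The 3 libraries held 3976, 681 and 1176 cells with 34031955, 7401174 and 10400648 UMIs. Capillary cells gave 1161172, 978494 and 1183976 of these, with a median of 3886, 7458 and 5252 UMIs and 1669, 2451.5 and 1999 genes per cell, so the Lin28-positive cKit-negative cells were the most deeply read. Thinned to 1000 UMIs each, the cells held a median of 606, 601 and 600.5 genes. The Lin28-negative and Lin28-positive cKit-positive libraries shared 8 cell barcodes and the pair of Lin28-positive libraries shared 1. No doublet caller was run and no cell was removed.

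Capillary cells made up a larger share of the endothelial cells in both Lin28-positive libraries than in the Lin28-negative one. They were 287 of 985 endothelial cells in the Lin28-negative library, or 29.1% (26.3 to 32.1). They were 122 of 276, or 44.2% (38.3 to 50.3), in the Lin28-positive cKit-negative library and 197 of 473, or 41.6% (37.2 to 46.2), in the Lin28-positive cKit-positive library. The interval of the Lin28-negative library lies below those of the other libraries, and the intervals of the Lin28-positive libraries overlap. Of all sorted cells, capillary cells were 7.22%, 17.9% and 16.8%. The other types filled the rest differently: arterial cells were 25.1%, 12.7% and 21.1% of the endothelial cells, Lrg1 Col13a1 cells 17.7%, 23.6% and 13.7%, and endocardial cells 8.93%, 3.99% and 6.98%.

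This gap depended on how the rule was applied. With all cells thinned to 1000 UMIs before scoring, the capillary shares were 32.6%, 37.8% and 38.0%. With genes scored relative to the cells of the same library they were 33.8%, 38.4% and 33.8%, so that the Lin28-positive cKit-positive library no longer differed from the Lin28-negative one. The sort gate, the depth of the cells and the library cannot be told apart as sources of the difference, since each group is 1 library.

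**Figure D1:**
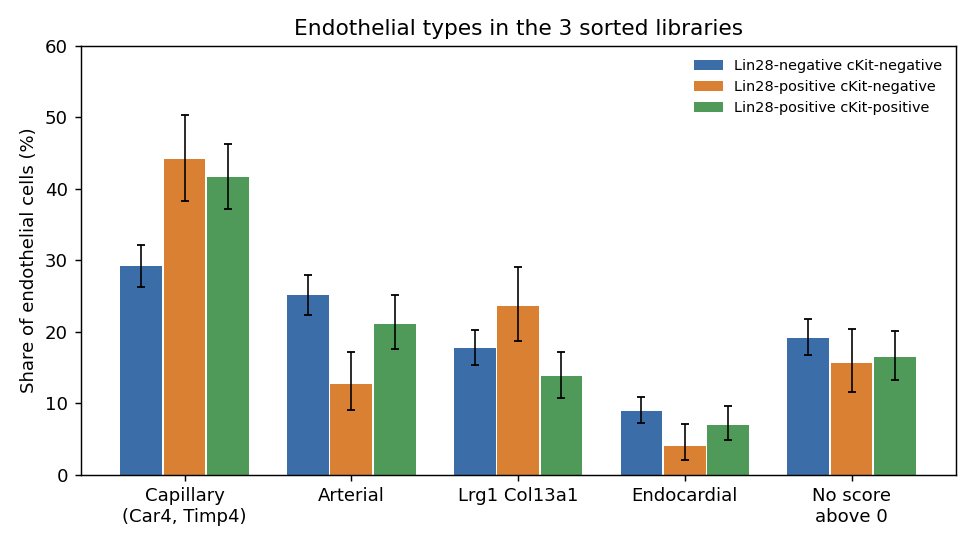
Share of endothelial cells (y axis, percent) that fell in each type (x axis) in the 3 libraries, with exact 95% intervals of counting error. The capillary bars stand at 29.1% in the Lin28-negative library and at 44.2% and 41.6% in the Lin28-positive libraries.

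Lpl, Gpihbp1 and Angptl4, genes of fatty acid supply, were higher in the capillary cells than in the other endothelial types in every library. A gene is called here when its level differs by at least 1.5-fold, the interval of the ratio leaves out 1 and the pair holds at least 20 UMIs. Of 7663 genes measured in every library, 103 (1.34%) were called above the other endothelial types in all 3 libraries and 235 (3.07%) below. Lpl (8:68880491-68907448), which encodes lipoprotein lipase, had, once the 4 defining genes are set aside, the largest smallest ratio over the libraries among genes that met the naming rule. It stood at 1159, 1413 and 1219 CPM in the capillary cells and at 344, 523 and 495 CPM in the other types. The ratios were 3.37 (3.09 to 3.68), 2.70 (2.437 to 2.998) and 2.46 (2.24 to 2.70), and the capillary level was also above each other type by itself: Lpl was at 435, 747 and 638 CPM in arterial cells, at 454, 510 and 555 CPM in Lrg1 Col13a1 cells and at 47.9, 138 and 99.8 CPM in endocardial cells. Lpl was also high in the non-endothelial cells of the Lin28-negative library, at 1302 CPM, and at 213 and 164 CPM in those of the other libraries. Gpihbp1, whose product holds the lipase at the capillary surface, was at 1761, 1558 and 1853 CPM against 833, 979 and 1098 CPM. Angptl4, a secreted inhibitor of the lipase, was at 42.2, 46.0 and 48.1 CPM against 23.1, 24.03 and 17.1 CPM.

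These 3 were the called members of a list of 22 fatty acid genes, of which 16 were measured in every library and 0 were called lower. The median log2 ratio of the list was 0.72, 0.46 and 0.45, beside -0.01, -0.03 and -0.02 over all genes. Cd36, the fatty acid translocase, was at 3248, 3869 and 3057 CPM against 1768, 2761 and 1955 CPM, ratios of 1.84, 1.40 and 1.56. Fabp4, the cytosolic carrier, was at 24119, 22189 and 25794 CPM against 12888, 16541 and 14795 CPM, ratios of 1.87, 1.34 and 1.74. Both missed the call in the Lin28-positive cKit-negative library alone. Fabp5, a related carrier, did not follow, with ratios of 0.852, 1.07 and 0.917. Pparg, which encodes a nuclear receptor of lipid metabolism, was at 94.7, 122 and 103 CPM against 43.3, 76.2 and 73.7 CPM. Meox2 and Tcf15, transcription factors that act together on fatty acid transport in heart endothelium, had ratios of 1.74, 1.09 and 1.34 and of 1.62, 1.26 and 1.42.

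Of the 18 capillary genes outside the rule, the called ones were Gpihbp1, Rgcc, Kdr, Cd300lg and Slc28a2, and the list's median log2 ratio was 0.86, 0.59 and 0.73. Rgcc, a regulator of the cell cycle, was at 1337, 1168 and 1321 CPM against 580, 570 and 750 CPM. Kdr, the main receptor for VEGF-A, was at 1207, 1157 and 1096 CPM against 672, 534 and 650 CPM, whereas Flt1, the decoy VEGF receptor, had ratios of 0.894, 0.992 and 0.936. Slc28a2, a nucleoside carrier, was at 202, 299 and 231 CPM against 86.2, 168 and 112 CPM. The water channel genes Aqp1 and Aqp7 had ratios of 1.89, 1.31 and 1.88 and of 1.52, 1.55 and 1.45, so each missed the call in 1 library.

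**Figure D2:**
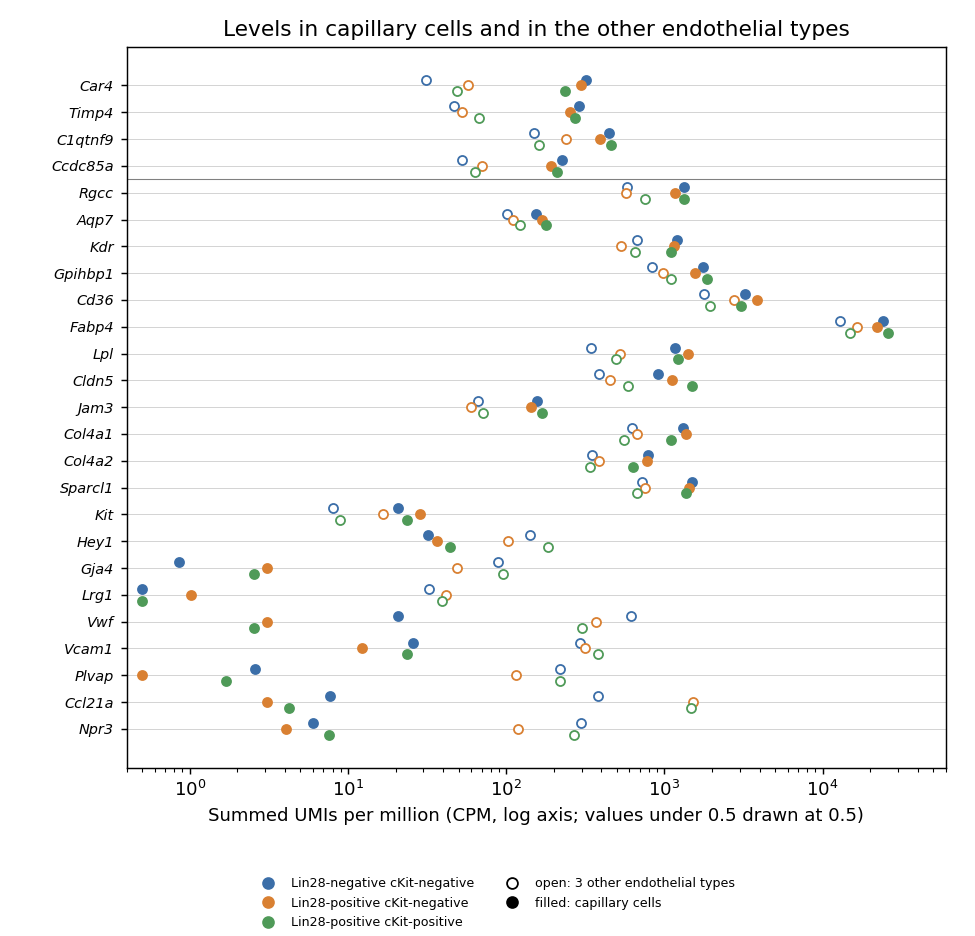
Level of each gene (x axis, CPM, log axis) in capillary cells (filled) and in the 3 other endothelial types together (open), by library colour; genes above the grey line were used by the rule. Lpl lies at 1159 to 1413 CPM in capillary cells against 344 to 523 CPM, and Plvap, Vwf and Ccl21a lie to the left of their open points by more than 10-fold.

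Of 16 measured basement membrane genes, 6 were called higher and 2 lower, with a median log2 ratio of 0.54, 0.47 and 0.49. Col4a1 and Col4a2 encode the paired chains of type IV collagen. Col4a1 was at 1316, 1361 and 1100 CPM against 628, 668 and 559 CPM, and Col4a2 was at 791, 775 and 638 CPM against 349, 386 and 340 CPM. Sparcl1 and Sparc, matricellular proteins, were called as well, Sparcl1 at 1490, 1432 and 1371 CPM against 721, 754 and 673 CPM. Arterial cells by themselves had Sparcl1 at 1064, 1056 and 915 CPM, above that pooled level. Lamb1, a laminin chain, had ratios of 2.04, 2.45 and 2.06, and Col15a1 ratios of 1.94, 3.26 and 3.70. The lower members were Timp3, a metalloproteinase inhibitor bound to matrix, at 562, 592 and 529 CPM against 932, 1039 and 974 CPM, and Col18a1, the source of endostatin. Timp4, which chose the cells, and Timp3 thus stood on opposite sides. In the Lin28-negative library several of these genes were also abundant in non-endothelial cells, with Sparc at 2395 CPM and Col15a1 at 688 CPM there, while Sparc was at 244 and 79.7 CPM and Col15a1 at 63.4 and 14.5 CPM in those of the other libraries. The part of such transcripts in the capillary values was not tested.

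Tight junction genes were called in 2 of 14 cases higher and in 1 lower. Cldn5 (16:18776847-18778262), the main endothelial claudin, was at 917, 1113 and 1492 CPM against 383, 450 and 591 CPM, ratios of 2.39, 2.47 and 2.52. These ratios to the pooled types differ little between libraries, but the pool includes endocardial cells at 89.4, 395 and 114 CPM. Arterial cells were nearer to the capillary level, at 689, 555 and 887 CPM. Jam3, a junctional adhesion molecule, was at 110, 116 and 93.9 CPM in arterial cells. Its capillary level was 157, 143 and 167 CPM against 66.4, 59.5 and 71.5 CPM in the pooled types. Cgnl1, a junctional adaptor, went the other way at 51.7, 53.1 and 54.9 CPM against 310, 123 and 199 CPM. Apln and its receptor Aplnr, a signalling pair of growing capillaries, were both high: Apln at 27.6, 33.7 and 20.3 CPM against 6.07, 6.27 and 7.45 CPM, and Aplnr at 163, 159 and 144 CPM against 74.5, 90.9 and 56.6 CPM. Apln rested on 17, 12 and 15 cells, and without the cell that held most of its UMIs its level was 22.4, 20.4 and 17.7 CPM. The other called genes of that list of sprouting genes (4 higher and 1 lower of 17) were Rgcc and Trp53i11 above and Calcrl below.

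Among 28 endothelial transcription factors, 3 were called higher and 1 lower. Ets2 was at 321, 353 and 291 CPM against 151, 188 and 178 CPM, Meox1 at 97.3, 108 and 95.4 CPM against 36.0, 44.9 and 62.6 CPM, and Tcf4 had ratios of 1.57, 1.52 and 1.63. Nr2f2, the COUP-TFII factor of vein identity, was lower, at 23.3, 39.9 and 11.8 CPM against 115, 134 and 104 CPM. Of the 12 genes that the naming rule put highest, those not yet given were Myl2, Arhgap18, St8sia4, Adamts9, Ssh2 and Ablim3, with capillary levels from 110 CPM (Adamts9, Lin28-negative) to 267 CPM (Myl2, Lin28-positive cKit-positive). Ablim3 was at 131, 217 and 191 CPM in capillary cells and at 114, 175 and 148 CPM in arterial cells. Adamts9 encodes a secreted protease of proteoglycans and St8sia4 a polysialic acid synthase. Ssh2 encodes a phosphatase of cofilin, which remodels actin.

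Most venous, lymphatic and endocardial markers were called lower, and a minority of the arterial ones. Of 11 venous genes measured, 10 were called lower, as were 7 of 8 lymphatic, 6 of 8 endocardial and 5 of 19 arterial genes outside the rule, and 0 of any of these lists was called higher. The arterial genes summed to 4205, 4091 and 4263 CPM in capillary cells and to 4058, 3553 and 4726 CPM in the other types, so that their sum was lower in the Lin28-positive cKit-positive library alone. Vwf, the von Willebrand factor gene, was at 20.7, 3.07 and 2.53 CPM in the capillary cells and at 617, 369 and 302 CPM in the other types. Plvap, which encodes the diaphragm protein of fenestrated endothelium, rested on 3, 0 and 2 capillary UMIs, or 2.58, 0 and 1.69 CPM, against 220, 116 and 220 CPM. The lymphatic chemokine gene Ccl21a, which has close copies in the mouse genome, was at 7.75, 3.07 and 4.22 CPM against 378, 1527 and 1470 CPM. Vcam1, a leukocyte adhesion molecule, was at 25.8, 12.3 and 23.6 CPM against 293, 314 and 383 CPM, and Sele, which encodes E-selectin, was at 0 UMIs in every library. Endocardial cells carried much of the pooled levels, with Vcam1 at 781, 1158 and 1514 CPM and Plvap at 777, 754 and 916 CPM. Arterial cells had Vcam1 at 35.2, 206 and 5.22 CPM, Plvap at 1.07, 26.8 and 3.48 CPM and Vwf at 44.9, 40.3 and 8.70 CPM. Low levels of these genes were thus shared with arterial cells in the Lin28-negative and Lin28-positive cKit-positive libraries. Edn1, which encodes the vasoconstrictor endothelin 1, was at 0.861, 0 and 1.69 CPM against 55.5, 51.2 and 85.7 CPM. Nos3, which encodes the endothelial nitric oxide synthase, by contrast had ratios of 0.859, 0.826 and 0.807, and Klf2, a flow-induced factor, ratios of 1.04, 0.957 and 1.11. Cytl1, Ctgf, Cpe, Igfbp5, Cp and Tmem2 were also among the 12 lowest.

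Against each type by itself, the capillary cells were nearest to the arterial and Lrg1 Col13a1 cells by the number of calls and farthest from the endocardial cells. Against arterial cells 63 of 6196 genes (1.02%) were called higher in all 3 libraries and 99 (1.6%) lower. Against Lrg1 Col13a1 cells 76 of 6826 (1.11%) were higher and 132 (1.93%) lower. Against endocardial cells 296 of 5849 (5.06%) were higher and 201 (3.44%) lower. The endocardial cells were the deepest of these types in the Lin28-negative and Lin28-positive cKit-positive libraries, with a median of 7142 and 8538 UMIs, and the fewest in every library.

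Several programs had no call between the capillary cells and the other endothelial types. Over all genes 1.34% were called higher and 3.07% lower, so 0 or 1 call in lists of 9 to 24 genes is near that share. In the lists of heat shock genes (19 measured), unfolded protein response (18), interferon response (22), MHC class I (13), glycolysis and hypoxia (19), stress granule proteins (24), let-7 targets and partners (9), Notch pathway (12) and mitochondrially encoded genes (13), 0 members were called in either direction. Other programs had calls on the lower side alone. Caveola genes were called in 0 of 9 cases higher and 1 lower, BMP and TGF-beta genes in 0 of 15 higher and 4 lower, flow and tone genes in 0 of 16 higher and 7 lower, and clotting genes in 0 of 10 higher and 3 lower. The median log2 ratio of the flow and tone list was -0.66, -0.52 and -0.58. Mitochondrially encoded genes had no call, yet their median log2 ratio was 0.31, 0.32 and 0.25. The median mitochondrial share of a capillary cell was 6.95%, 7.81% and 7.78%. That of an arterial cell was 5.81%, 5.83% and 7.11%, that of an Lrg1 Col13a1 cell 5.92%, 6.10% and 6.78%, and that of an endocardial cell 4.30%, 4.44% and 4.997%, each below the capillary value of its library.

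Summed heart muscle transcripts were higher in the capillary cells than in either the pooled other endothelial types or the non-endothelial cells. In the Lin28-negative library this rested partly on a few cells, as given below. Of 8 measured cardiomyocyte genes 7 were called higher in all 3 libraries, with a median log2 ratio of 1.29, 1.63 and 1.26. The summed level of the 10 listed genes was 671, 758 and 835 CPM in capillary cells, 283, 233 and 359 CPM in the other endothelial types and 113, 311 and 365 CPM in non-endothelial cells. Myl2 (5:122100951-122113472), the ventricular myosin light chain, was at 264, 212 and 267 CPM against 107, 85.6 and 117 CPM. The atrial gene Nppa and the calcium release channel gene Ryr2 were near 0, with 1, 5 and 2 UMIs and 0, 2 and 3 UMIs. At least 1 UMI of the list was found in 158 of 287, 91 of 122 and 156 of 197 capillary cells. After thinning to 1000 UMIs these shares were 27.3% (22.2 to 32.9), 39.5% (30.7 to 48.9) and 40.6% (33.6 to 47.9), against 15.2%, 15.6% and 23.1% in the other endothelial types and 6.14%, 14.7% and 18.3% in non-endothelial cells. In the Lin28-negative library 2 cells held 241 and 141 of the 779 UMIs, and without the 3 richest cells of each library the levels were 326, 629 and 685 CPM. Endothelial cells that fell in no type stood at 393, 203 and 707 CPM, and Lrg1 Col13a1 cells at 433, 205 and 419 CPM. In the Lin28-negative library both exceed the capillary level without its 3 richest cells, although no rich cells were taken from them. The thinned shares of the cells in no type were 30.4%, 24.3% and 34.7%, above the capillary share in the Lin28-negative library alone. The source of these transcripts was not tested. The 7 mesothelial genes summed to 68.0, 91.0 and 66.7 CPM in capillary cells. The pooled other endothelial types were lower, at 37.2, 52.2 and 58.8 CPM, as were non-endothelial cells, at 12.7, 17.5 and 0.937 CPM. Arterial cells by themselves were at 61.9, 125 and 97.4 CPM, above the capillary cells in both Lin28-positive libraries. Nearly all of the capillary sum was Wt1, a transcription factor that endothelium can also express, with 75 of 79, 88 of 89 and 75 of 79 UMIs. Msln, Krt8, Lrrn4 and Upk1b were at 0 UMIs.

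Pericyte genes were uneven over cells. The summed level of 10 pericyte genes was 219, 778 and 340 CPM in capillary cells, 455, 574 and 587 CPM in the other endothelial types and 344, 179 and 39.6 CPM in non-endothelial cells. In the Lin28-positive cKit-negative library 3 cells held 181, 79 and 76 of its 761 UMIs, and in the Lin28-positive cKit-positive library 1 cell held 141 of 402. Without the 3 richest cells the levels were 158, 444 and 194 CPM.

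Transcripts of fibroblasts and macrophages followed the library. The 12 fibroblast genes summed to 3711, 159 and 89.5 CPM in capillary cells and to 68978, 5886 and 1035 CPM in non-endothelial cells, and 1 capillary cell of the Lin28-negative library held 1073 of its 4309 fibroblast UMIs. The 12 macrophage genes summed to 9.47, 505 and 807 CPM in capillary cells and to 168, 24521 and 27192 CPM in non-endothelial cells, with 7 of the 12 at 0 UMIs in the Lin28-negative capillary cells. Both lists thus had the order of libraries that they had in the non-endothelial cells. Only 7 of the 12 genes in each list lie outside the rule, which kept out cells with high values of the others. The gap between capillary and non-endothelial cells is therefore in part set by the choice of cells. T and NK cell genes were at 0 UMIs in the capillary cells of both Lin28-positive libraries.

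**Figure D3:**
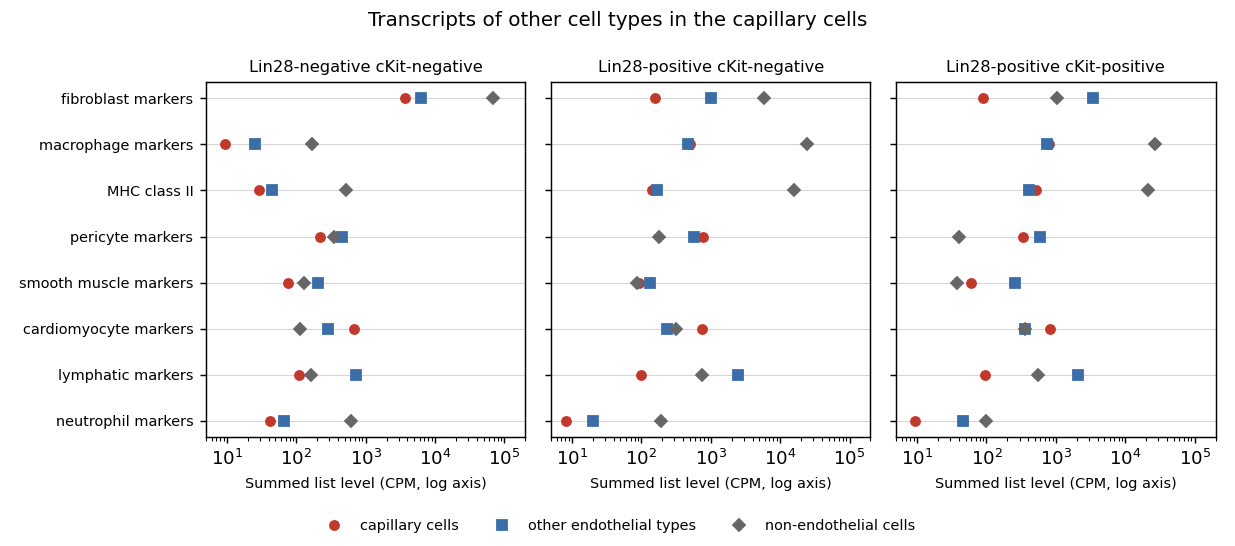
Summed level of each marker list (x axis, CPM, log axis) in capillary cells, the other endothelial types and non-endothelial cells, 1 panel per library. Of the 8 lists drawn, cardiomyocyte genes are the one on which capillary cells lie right of both other groups in every panel, at 671, 758 and 835 CPM, while fibroblast genes lie at 3711 CPM in the Lin28-negative library and at 159 and 89.5 CPM in the others.

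Between the libraries, no gene of the capillary lists was called. The 4 defining genes had 0 calls in each of the 3 pairs of libraries, which the choice of cells in part fixes. The 18 capillary genes outside the rule likewise had 0 calls in each pair, with median log2 ratios of -0.07, -0.02 and 0.03. From 2.61% to 4.3% of all genes were called per direction and pair, as given below, so 0 of 18 is near that share. The pairs are Lin28-positive cKit-negative over Lin28-negative, Lin28-positive cKit-positive over Lin28-negative, and Lin28-positive cKit-positive over Lin28-positive cKit-negative, and list values below follow that order. Each library enters 2 pairs, so the pairs are not independent of each other. Among 7971 genes, 285 (3.58%) were called higher and 343 (4.3%) lower in the Lin28-positive cKit-negative than in the Lin28-negative capillary cells. Among 8156 genes, 213 (2.61%) were higher and 345 (4.23%) lower in the Lin28-positive cKit-positive than in the Lin28-negative cells, a split of 38.2% higher that became 48.8% (264 higher and 277 lower) with TMM scaling. Among 7868 genes, 208 (2.64%) were higher and 276 (3.51%) lower in the Lin28-positive cKit-positive than in the Lin28-positive cKit-negative cells. With TMM scaling the first pair had 325 higher and 306 lower and the third 237 of each, and without the richest cell for each gene the third had 249 higher and 213 lower, so which direction holds more calls is not stable in these pairs. The median log2 ratio over all genes was -0.04, -0.03 and -0.01.

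Of the genes that the naming rule takes, Rgs5 differed most between the Lin28-positive cKit-negative and the Lin28-negative capillary cells. Rgs5 (1:169655501-169695813) encodes a regulator of G protein signalling typical of pericytes. It stood at 152, 611 and 247 CPM in the 3 libraries, 4.01-fold (3.38 to 4.77) higher in the Lin28-positive cKit-negative than in the Lin28-negative cells. It was found in 42, 53 and 57 cells. Without the cell that held most of its UMIs in each library, its level was 134, 499 and 189 CPM, so that the Lin28-positive cKit-positive cells no longer passed 1.5-fold over the Lin28-negative ones; that call was lost under 4 alternatives in all. Rgs5 is itself on the pericyte list and gave most of its UMIs, 177 of 254, 598 of 761 and 292 of 402. In arterial cells that list summed to 877, 1830 and 812 CPM, above the capillary level in every library and highest in the same library. Lrg1 Col13a1 cells, at 213, 213 and 552 CPM, and endocardial cells, at 177, 73.5 and 185 CPM, were highest in the Lin28-positive cKit-positive library. The other 4 members measured in the first pair, Abcc9, Kcnj8, Pdgfrb and Ndufa4l2, were called higher too. They were at 43.9, 26.6, 23.5 and 43.9 CPM in the Lin28-positive cKit-negative capillary cells. Single cells held much of this: without the richest cell for each gene those levels were 27.6, 9.20, 11.2 and 28.6 CPM. In the second pair 3 of 5 members, Rgs5 included, were called higher, and in the third 5 of 6 were called lower.

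Slamf1, a lymphocyte adhesion receptor, was next, at 48.2, 148 and 66.7 CPM, and it was found in 30, 21 and 28 cells, with 29 of 145 UMIs in 1 cell of the Lin28-positive cKit-negative library. Sox18, a transcription factor of vessel and lymphatic development, was at 148, 318 and 194 CPM, highest in the Lin28-positive cKit-negative cells by 2.15-fold (1.78 to 2.60) over the Lin28-negative ones. Its level in non-endothelial cells was at most 3.65 CPM, and the other endothelial types had the same order, at 144, 298 and 189 CPM. Myadm, a myeloid differentiation-associated membrane protein gene, was at 261, 553 and 289 CPM, and the other types again had that order at 189, 418 and 209 CPM. Rnaset2a, a ribonuclease gene with a near-identical copy, was at 44.8, 122 and 61.7 CPM, and Sik1, a salt-inducible kinase gene, at 73.2, 140 and 99.7 CPM. Hspa1b, which encodes an inducible HSP70 and has the near-identical copy Hspa1a, was at 645, 1258 and 769 CPM, and Hspa1a at 1656, 2547 and 2453 CPM. The non-endothelial cells had Hspa1b at 76.1, 785 and 616 CPM and Hspa1a at 323, 1850 and 2187 CPM.

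The genes lower in the Lin28-positive cKit-negative than in the Lin28-negative capillary cells were led by Xist, treated further on, and by Cd59a, which encodes an inhibitor of complement, at 106, 48.0 and 81.9 CPM. Cd59a was 2.21-fold (1.56 to 3.16) lower there. The others that the rule names were Bcap31 at 132, 72.6 and 127 CPM, Samd9l, an interferon-inducible gene, at 140, 80.7 and 95.4 CPM, the linker histone gene Hist1h1e at 141, 81.8 and 87.8 CPM, Rex1bd, Srgap2 and Aldh2. Aldh2, which encodes mitochondrial aldehyde dehydrogenase, was at 246, 150 and 182 CPM. In all 8 the Lin28-positive cKit-negative cells were the lowest of the 3 libraries.

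Several genes were higher in the Lin28-positive cKit-positive than in the Lin28-negative capillary cells. Cldn5 was 1.63-fold (1.51 to 1.76) higher, with a capillary level of 917, 1113 and 1492 CPM and a non-endothelial level of at most 21.7 CPM. Tnnt2, cardiac troponin T, was at 49.1, 80.7 and 106 CPM, beside the muscle list given above. Socs3, a feedback inhibitor of cytokine signalling, was at 73.2, 130 and 117 CPM, and in non-endothelial cells at 835, 525 and 516 CPM. Junb, Rgs5, Snrpf and Bola2 were also named by the rule.

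Lower in these cells than in the Lin28-negative ones were Kcnq1ot1, a long antisense RNA of the imprinted Kcnq1 locus, at 204, 138 and 108 CPM, and Syne1, which encodes the nuclear envelope protein nesprin 1, at 307, 210 and 193 CPM. Clstn1 was at 109, 93.0 and 61.7 CPM and the laminin chain gene Lamc1 at 164, 103 and 105 CPM, beside non-endothelial levels of Lamc1 of 681, 83.4 and 24.5 CPM. Hist1h1e, Zranb2, Immt and Dnm3 were the others. Kcnq1ot1 and Xist each overlap a gene on the opposite strand, and whether the counting used strand is not given in the sources used here.

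Between the pair of Lin28-positive libraries, Igfbp3, which encodes a carrier of insulin-like growth factors, was at 69.5 CPM in the cKit-negative and 114 CPM in the cKit-positive capillary cells, 1.64-fold (1.22 to 2.23) higher in the latter. Bax, a pro-apoptotic BCL2 family gene, was at 103 and 171 CPM and Camk1 at 68.5 and 117 CPM. The growth arrest gene Gadd45g, Psmb2, a proteasome subunit gene, Bcap31 and Xist were also named by the rule on the higher side. On the lower side, besides Rgs5, Slamf1, Rnaset2a and Myadm, stood Arf6, a small GTPase gene, at 100 and 53.2 CPM, Apc, a brake on beta-catenin, at 152 and 90.4 CPM, Dag1, the dystroglycan gene, at 109 and 65.0 CPM, and the unnamed gene AC160336.1 at 1002 and 442 CPM. For Igfbp3, Camk1 and AC160336.1 the Lin28-negative cells were nearer to the cKit-positive than to the cKit-negative value: Igfbp3 was at 112 CPM there, Camk1 at 106 CPM and AC160336.1 at 526 CPM.

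**Figure D4:**
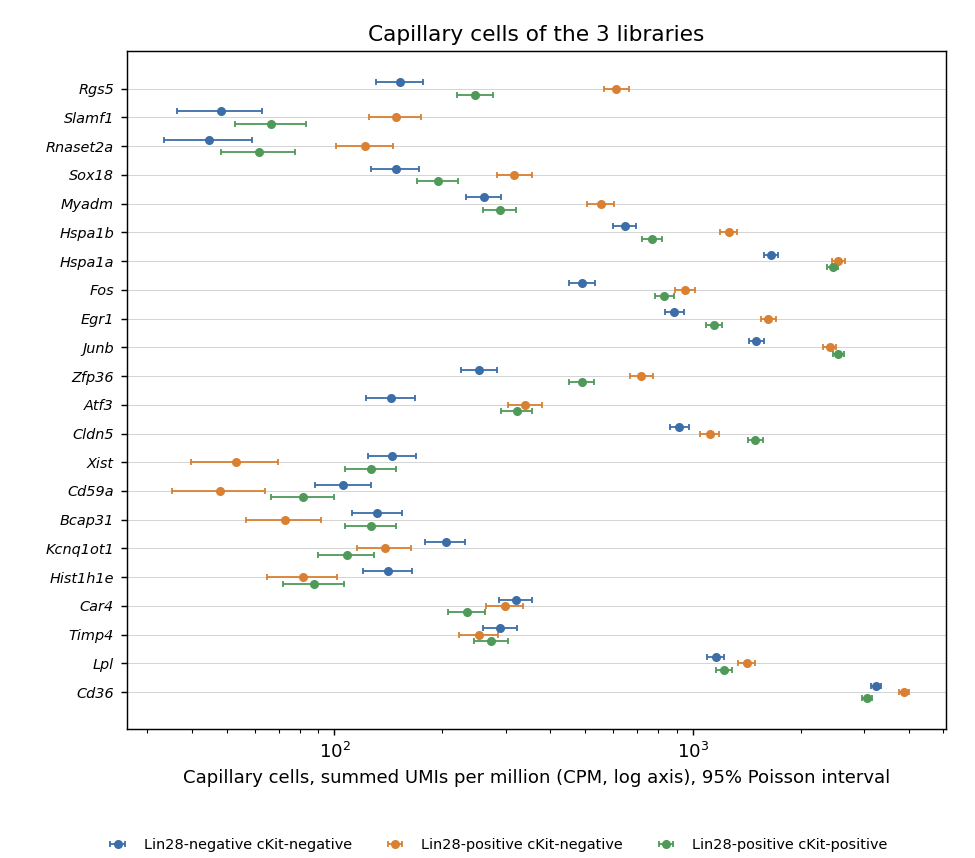
Level in the capillary cells (x axis, CPM, log axis) of named genes in the 3 libraries, with 95% Poisson intervals of counting error. Rgs5 and Sox18 are highest in the Lin28-positive cKit-negative library, at 611 and 318 CPM, Cldn5 is highest in the Lin28-positive cKit-positive library at 1492 CPM, and the defining gene Timp4 lies within 252 to 290 CPM.

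Immediate early genes, which are switched on within minutes by growth factors, stress or tissue handling, had more calls than the background on the higher side in both Lin28-positive libraries. Of 24 measured, 9 were called higher and 1 lower in the Lin28-positive cKit-negative over the Lin28-negative cells, with a median log2 ratio of 0.54. In the second pair 4 were higher and 0 lower, with a median of 0.37. Between the Lin28-positive libraries 1 was higher and 2 lower, with a median of -0.12. Fos was at 492, 951 and 833 CPM, Egr1 at 887, 1623 and 1144 CPM and Junb at 1504, 2407 and 2542 CPM. Zfp36, which encodes an RNA-binding protein that speeds decay of cytokine transcripts, was at 253, 718 and 489 CPM, and Atf3, a stress-induced factor, at 144, 340 and 323 CPM. In the non-endothelial cells Zfp36 was at 869, 4145 and 3977 CPM and Atf3 at 711, 3221 and 4236 CPM, above the capillary level in each library and lowest in the Lin28-negative one. The 26 listed genes summed to 16134, 21928 and 21723 CPM in capillary cells, 21359, 25143 and 22957 CPM in the other endothelial types and 31842, 48690 and 54734 CPM in non-endothelial cells, lowest in the Lin28-negative library in all 3. Zfp36 and Atf3 were therefore passed over by the naming rule, and the part of free RNA in these values was not tested.

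Of 19 heat shock genes, 2 (Hspa1a and Hspa1b) were called higher in the first pair, with a list median of 0.20. Interferon response genes had 4 of 22 called higher in the first pair (Isg15, Irf1 and Bst2 among them), 1 of 22 in the second and 3 of 23 lower in the third, with medians of 0.39, 0.18 and -0.20. Their sum differed little, at 2729, 2856 and 2802 CPM in capillary cells, beside 2394, 1808 and 1664 CPM in non-endothelial cells. After thinning, Isg15 was found in 3.19%, 8.40% and 4.69% of capillary cells and in 1.41%, 7.47% and 9.76% of non-endothelial cells. Notch genes had 4 of 12 called higher in the first pair. Notch4, an endothelial Notch receptor, was at 45.6, 71.5 and 60.8 CPM, and Hes1, a Notch target, at 425, 654 and 478 CPM. Lfng, a glycosyltransferase that modifies Notch, was at 12.1, 27.6 and 16.05 CPM in the capillary cells and at 1.82, 55.7 and 59.9 CPM in non-endothelial cells. In the second pair 0 Notch genes were called higher and 1 lower, and in the third 0 higher and 2 lower.

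MHC class II genes present antigen and belong mainly to immune cells. Of the 8 listed, 3, 3 and 4 were measured in the pairs, and all of these were called higher. The whole list held 34 UMIs in the Lin28-negative capillary cells. Members thus reached the minimum of 20 UMIs in the first and second pairs mostly through the Lin28-positive library, which largely fixes those counts. Cd74, the invariant chain, was at 16.4, 83.8 and 313 CPM, and in non-endothelial cells at 298, 8799 and 12081 CPM. H2-Aa was at 2.58, 24.5 and 61.7 CPM. The levels of the list in the other endothelial types were close by, at 44.5, 168 and 407 CPM beside 29.3, 143 and 515 CPM in capillary cells, and the macrophage list had the same order of libraries. In the Lin28-positive cKit-positive library 1 capillary cell held 120 of the 610 UMIs of the class II list. MHC class I genes, which all nucleated cells express, had 2 of 13 called higher in the first pair (H2-Q7 and Tap1) and 0 in the others.

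Fatty acid genes had 0 called higher in any pair and 1 of 16, 1 of 17 and 1 of 16 lower. Lpl was at 1159, 1413 and 1219 CPM and Cd36 at 3248, 3869 and 3057 CPM, both without a call. Basement membrane genes had 0 called higher and 1 of 15, 2 of 16 and 0 of 15 lower. Let-7 targets and partners, chosen because Lin28 blocks let-7, had 0 of 10, 0 of 10 and 0 of 9 called in either direction, and stress granule genes 1 of 24 called in each pair. Unfolded protein response genes had 1 of 18 called lower in each of the pairs, and 1 higher in the third. Over all genes 3.58%, 2.61% and 2.64% were called higher in the 3 pairs and 4.3%, 4.23% and 3.51% lower. Counts of 0 or 1 in lists of this size are near those shares.

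**Figure D5:**
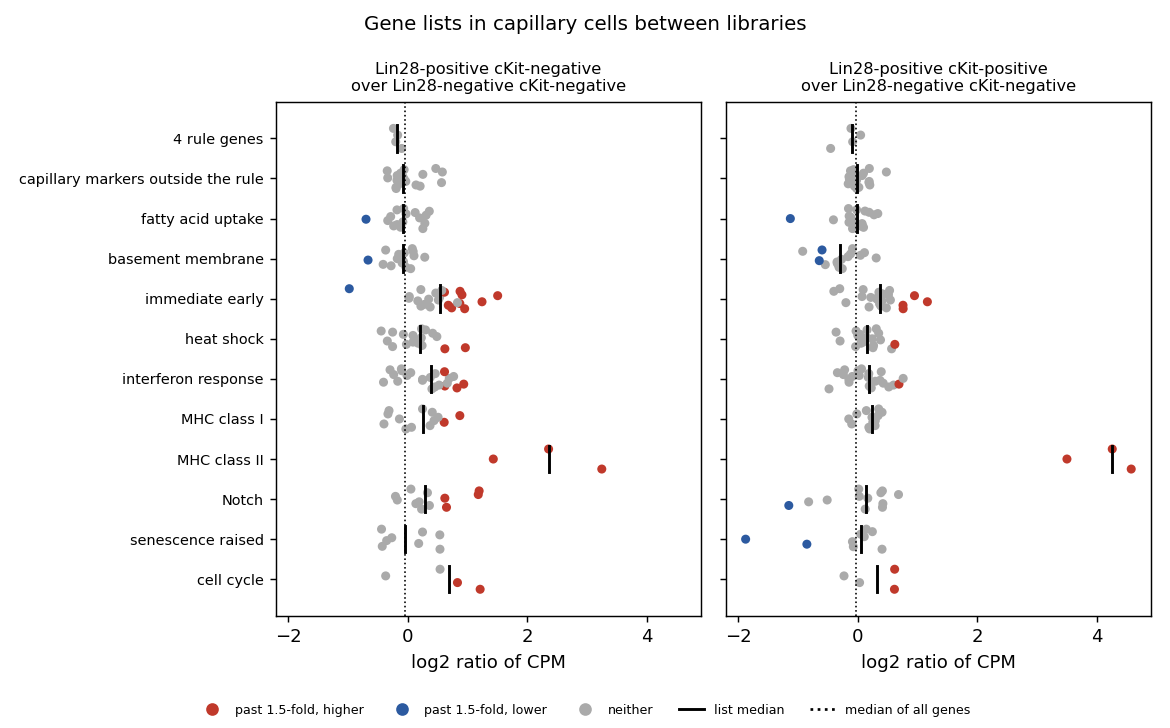
log2 ratio of CPM (x axis) for each measured gene of 12 lists (y axis) in the capillary cells of each Lin28-positive library over the Lin28-negative one; bars are list medians and the dotted line is the median of all genes. Immediate early genes have a median of 0.54 and 0.37, capillary genes outside the rule of -0.07 and -0.02, and the 3 class II genes lie far to the right.

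The genes behind the sort and genes tied to senescence were looked at by name. Kit (5:75574916-75656722), the transcript of cKit, was sparse, at 20.7, 28.6 and 23.6 CPM in capillary cells from 24, 28 and 28 UMIs. The level in the cells sorted for surface cKit was 1.14-fold (0.640 to 2.06) that of the Lin28-negative and 0.826-fold (0.472 to 1.45) that of the Lin28-positive cKit-negative cells, so no difference was detectable at this depth. Kit was at 8.10, 16.7 and 8.94 CPM in the other endothelial types, and the capillary ratios to them were 2.55 (1.35 to 4.87), 1.71 (0.895 to 3.39) and 2.65 (1.30 to 5.71). After thinning, 2.13%, 5.04% and 3.13% of capillary cells held a Kit UMI, beside 0.240%, 0% (at most 1.05%) and 0.152% of non-endothelial cells; without thinning the capillary shares were 6.97%, 16.4% and 11.2%. Kitl, which encodes the ligand of cKit, was at 811, 778 and 773 CPM. Transcripts of the Lin28 genes are not analysed here.

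From a list of genes that senescent cells typically raise, 8 were measured and 0 called in the first pair. In the second 0 of 9 were higher and 2 (Igfbp5 among them) lower, and in the third 0 of 8 were higher and 1 lower. Cdkn1a, the p21 gene, was at 203, 295 and 269 CPM, 1.45-fold (1.22 to 1.73) and 1.33-fold (1.12 to 1.58) above the Lin28-negative level and so under the 1.5-fold threshold. Its non-endothelial level was 129, 518 and 643 CPM. Cdkn2a, the p16 and Arf gene, had 0, 1 and 2 UMIs in the capillary cells. Of the proliferation genes, 4 were measured; Pcna and Mcm3 were called higher in the first pair, Pcna and Stmn1 in the second, and Pcna and Mcm3 lower in the third.

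Xist (X:103460366-103483254), the RNA that silences an X chromosome in female cells, was at 145, 53.1 and 127 CPM in the capillary cells, lowest in the Lin28-positive cKit-negative library. In the Lin28-negative library 35 capillary cells held Xist and no transcript of 4 Y-linked genes, 136 held Y-linked transcripts alone, 6 held both and 110 neither. The counts were 13, 77, 0 and 32 in the Lin28-positive cKit-negative library and 27, 102, 6 and 62 in the Lin28-positive cKit-positive library. Cells with Xist alone were thus 20.5%, 14.4% and 20.9% of the cells with Xist alone or Y-linked transcripts alone, so that each library held capillary cells of both kinds. The lower Xist level of the Lin28-positive cKit-negative library went with a lower share of such cells and with a lower level in them, 851, 509 and 716 CPM.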

How the data were processed

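The authors deposited, for each of 3 libraries, a table of natural log values, ln(1 + 10000 × UMIs of a gene / UMIs of the cell), made with Cell Ranger, Seurat 4.0.2 and mm10 per the submitters' processing notes. Undoing the log gave whole UMI counts for 100% of values within 0.01. Capillary cells were assigned on the deposited natural log values, and recovered UMIs were summed per type and library and scaled to CPM, so fewer cells of a kind and less RNA per cell cannot be told apart. Levels have exact Poisson and ratios exact conditional binomial intervals; shares have Clopper-Pearson intervals. Ratios against 0 to 3 UMIs use a floor of 3 UMIs per sum in list medians. With 1 library per group no test was run. The members and lists were chosen with earlier results of these data known. Named genes were the 12 per direction (types) or 8 (libraries) with the largest ratio, at least 100 CPM and 50 UMIs on the higher side, passing over mitochondrial, ribosomal, haemoglobin, Gm and Rik genes, for types the genes of the rule and, between libraries, genes at least 5 times higher in non-endothelial cells; list members are named after their values were seen. Alternatives changed the rule, scaling, UMI minimum and cells. Python 3.11.15, numpy 2.4.6, scipy 1.17.1 and pandas 2.3.3 were used, and the steps were tested on simulated data. A few genes that the rule names are not reported here.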

Additional observations from a re-analysis of the deposited data

How the results depend on the processing

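No named gene ratio reversed under any alternative. The direction with more calls between libraries did change. In Lin28-positive cKit-negative over Lin28-negative cells, 285 higher and 343 lower became 325 higher and 306 lower with TMM scaling. Between the Lin28-positive libraries, 208 higher and 276 lower became 249 higher and 213 lower without the richest cell for each gene. The capillary share of endothelial cells was 33.8% in the Lin28-negative and 33.8% in the Lin28-positive cKit-positive library when genes were scored within each library. In these libraries it was 24.1% and 32.98% when a lead of at least 0.25 was required. With cells thinned to 1000 UMIs first, it was 32.6% in the Lin28-negative and 37.8% in the Lin28-positive cKit-negative library. Genes called between capillary cells and the other types numbered 39 higher and 130 lower after thinning, 62 higher without the 5% of cells with most fibroblast and macrophage UMIs, 59 higher and 91 lower with at least 100 UMIs in the pair, and, as an alternative chosen after seeing the data, 173 higher and 396 lower without the Lin28-positive cKit-negative library, which holds the fewest cells. With at least 100 UMIs the calls between libraries were 112 higher and 106 lower, 65 higher and 85 lower, and 70 higher and 88 lower in the 3 pairs. The other shares and counts stayed within their intervals or within 1.5 times. Of 72 named gene ratios, 26 lost their call when cells were thinned before the rule was applied, 6 with means over cells, 4 with scoring within each library, 3 with a lead of at least 0.25, 2 with an endothelial mean of at least 1 and 0 with TMM scaling; 1 of 48 between libraries was lost without the cell with most UMIs of the gene. Fewer UMIs and fewer cells are part of what thinning and the stricter minimum do; other causes were not tested. No paired analysis was possible because each group has 1 library. Only 11 endocardial cells in the Lin28-positive cKit-negative library stand behind the comparison with that type.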
